A study of Mus musculus with 13 samples.

Results

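Interferons are cytokines that cells release when they sense foreign nucleic acid or when lymphocytes are activated, and they act through receptors of the JAK-STAT pathway. Type I interferons drive antiviral genes mainly through the ISGF3 complex, which contains STAT2 and IRF9 and binds the interferon-stimulated response element (ISRE), whereas interferon gamma acts through the gamma-activated site (GAS) and through IRF1. Major histocompatibility complex (MHC) class I molecules, which are raised by both kinds of interferon, show peptides cut by the proteasome and pumped into the endoplasmic reticulum by TAP to cytotoxic T cells.

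The genes described here are 41 interferon-stimulated and MHC class I genes, taken by symbol from the 15213 genes of the deposited table. They comprise 20 antiviral genes, 3 cytosolic RNA sensors, 4 transcription factors, 2 poly(ADP-ribose) polymerases (PARPs), 4 interferon-induced GTPases and 8 genes of class I presentation. The 4 GTPases are guanylate-binding proteins and immunity-related GTPases, while the GTPases Mx1 and Mx2 are counted among the antiviral genes. The libraries are total RNA of 10 mammary tumors, which arose in 6 females carrying MMTV-tTA and TetO-Tsg101 (MtTA Teto-TSG101wt in the labels), and of normal glands of 3 wild-type females of the FVB strain. In the tumor-bearing females, the MMTV promoter drives the tetracycline-controlled transactivator, which in turn switches on HA-tagged TSG101, a component of the endosomal sorting machinery, in mammary epithelial cells. The detailed studies used a single founder line of the responder transgene, and the tumor-bearing females share the FVB/N strain background with the wild-type glands. The ages of the mice and the reproductive stage of the glands were not given in the sources used here. A single tumor came from each of 3 females, 2 tumors from each of 2 others and 3 tumors from the last, and no libraries were pooled. What else separates a tumor from a whole gland cannot be told apart from the transgene, since no gland of a transgenic female was sequenced.

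Library depth ranged from 6176269 to 16835397 reads in tumors and from 11672487 to 23889042 reads in glands. Levels are given in normalized cpm, the read count divided by the scaled library size of the authors. Tsg101 itself ranged from 49.9 to 101.3 normalized cpm in tumors and was at 45.6, 53.0 and 61.0 in the glands, with a log2 fold change of 0.30 ± 0.20 (SE, adjusted p = 0.296). The table does not separate the transgene from the endogenous gene. Gland 2 stood apart from the other glands in its lymphocyte markers, and tumor 9 in the reads on the ribosomal RNA precursor Rn45s, which made up 27.4% of its total. Results that rest on these libraries are given with their values below.

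Of the 41 genes, 32 passed the filter on low values and were tested. In the tumors, 15 of these 32 were significantly lower by more than 2-fold at an adjusted p below 0.05 (limma, Benjamini-Hochberg over all genes tested), against 6.99% of all 11795 genes tested. None was significantly higher, against 10.2% of all genes. The edgeR and DESeq2 tests on recovered read counts also called 0 genes higher, and 0 of the 32 were higher at an unadjusted p below 0.05 in limma. The other 17 were not called. By the adjusted p alone, without the fold limit, 20 of the 32 were lower, against 13% of all genes. The median log2 fold change was -0.92 over the 32 genes and 0.01 over all genes tested. In 20 of the 32, every tumor lay below every gland, which was true of 8.53% of all genes tested.

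The 15 genes were not spread evenly over the roles. All 8 genes of class I presentation and all 4 genes of the GTPase group fell, with a median log2 fold change of -1.84 and -2.01. The GTPases Mx1 (-0.04) and Mx2 (0.08), counted as antiviral, did not pass the filter and were not called without it. Of the 11 antiviral genes tested, only Bst2 fell, and the median was -0.50. The filter left out 9 further antiviral genes, and without it 5 of all 20 were called lower, against 10.1% of all 15213 genes. None of the 3 RNA sensors was called (median -0.54). Of the 4 transcription factors, only Irf1 fell (median -0.45), and of the 2 PARPs only Parp14 (median -1.36). Whether the roles differed from each other was not tested. In bulk samples, fewer cells of a type and less RNA per cell cannot be told apart.

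**Figure D1:**
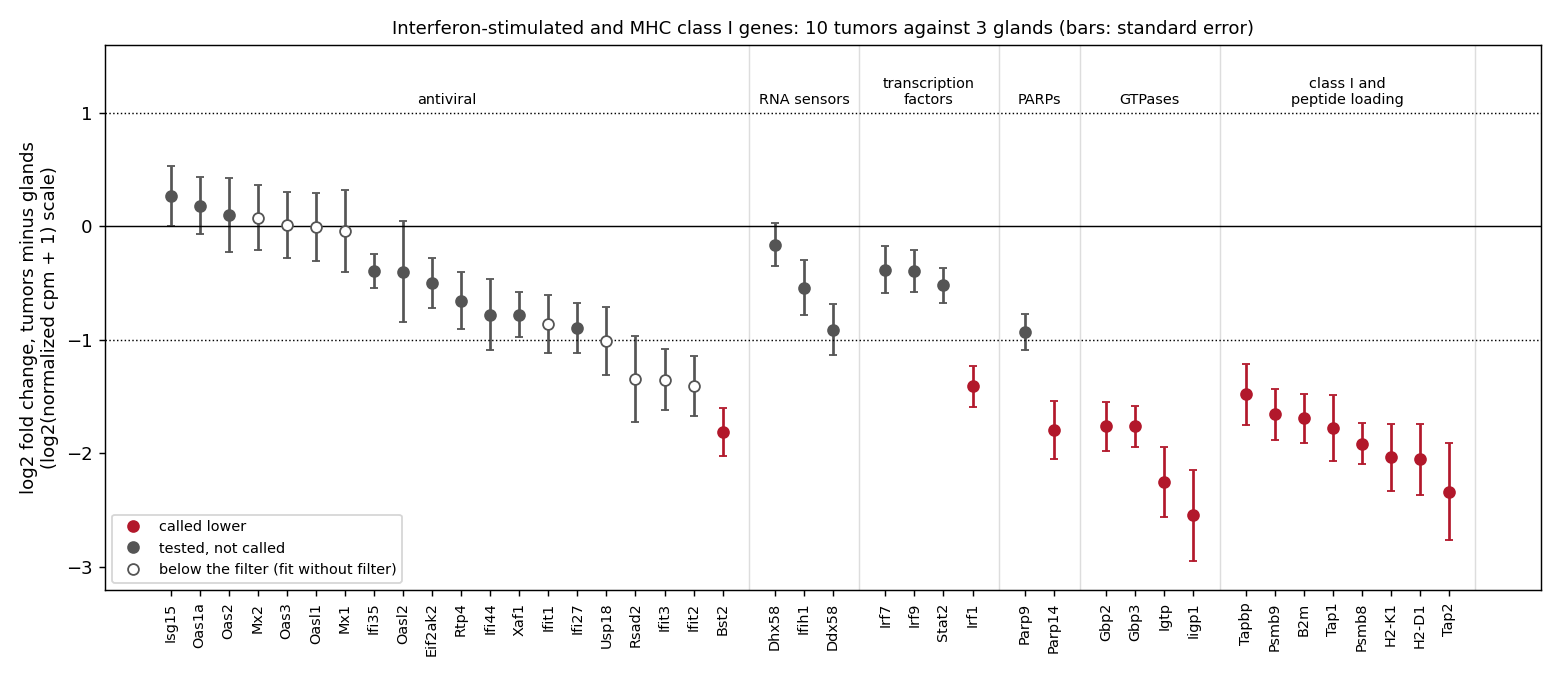
Log2 fold change of each of the 41 genes between 10 tumors and 3 glands on the log2(normalized cpm + 1) scale, ordered by role on the x axis, with the standard error as bars and dotted lines at a 2-fold change. The 8 class I genes and the 4 GTPases (red, called lower) all lie below -1, while Isg15, Oas1a and Oas2 lie at or slightly above 0; open circles are the 9 genes that did not pass the filter.

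The start regions of the genes were read from RefSeq (GRCm38.p6), from 250 bases before to 50 bases after the transcription start, and 30 of the 41 genes had such a window. The core of the ISRE, GAAANNGAAA, was searched on both strands, and overlapping matches were counted as 1 gene. It was present in 15 of the 30 windows (50%), against 3.99% of the 27025 genes with a window. It was found in 8 of 14 windows of antiviral genes and in 3 of 3 windows of GTPases, but in 1 of 7 windows of class I genes, that of B2m. The GAS letters TTCNNNGAA, which read the same on both strands apart from the central bases, were present in 8 of 30 windows (26.7%), against 9.55% of genes. Among the genes that fell, 5 of 12 windows held the ISRE core and 4 of 12 held the GAS letters. A match describes the letters only and does not show that a factor binds there.

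The stretches below show the ISRE core, in capitals on either strand, in antiviral genes that were not called (Isg15, Ifit1, Oas1a) and in genes that fell (Bst2, Gbp2, Gbp3, Igtp, B2m). All are 60 bases long, are written 5′ to 3′ in the direction of transcription, and end upstream of or at the base before the start.
Isg15 (chr4:156200856-156200915, minus strand): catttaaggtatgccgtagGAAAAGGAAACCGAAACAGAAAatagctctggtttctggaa
Ifit1 (chr19:34640769-34640828, plus strand): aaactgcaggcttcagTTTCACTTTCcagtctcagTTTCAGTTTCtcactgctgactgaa
Oas1a (chr5:120907526-120907585, minus strand): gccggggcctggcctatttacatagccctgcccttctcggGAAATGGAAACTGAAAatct
Bst2 (chr8:71537565-71537624, minus strand): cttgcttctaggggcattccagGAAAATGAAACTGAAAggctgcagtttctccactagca
Gbp2 (chr3:142620579-142620638, plus strand): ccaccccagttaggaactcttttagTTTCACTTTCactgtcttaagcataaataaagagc
Gbp3 (chr3:142559977-142560036, plus strand): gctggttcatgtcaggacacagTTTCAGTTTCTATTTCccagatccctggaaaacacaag
Igtp (chr11:58199496-58199555, plus strand): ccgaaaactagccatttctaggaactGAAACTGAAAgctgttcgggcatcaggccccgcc
B2m (chr2:122147523-122147582, plus strand): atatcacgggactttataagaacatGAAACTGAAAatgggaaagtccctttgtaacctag
In Isg15, 3 cores overlap head to tail, and in Oas1a and Bst2 the core occurs in an overlapping pair, as it does on the opposite strand in Gbp3. The core was thus found both in genes that were called lower and in genes that were not called.

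The GAS letters, in capitals, are shown for Irf1 and Psmb8, which fell and held no ISRE core in the window.
Irf1 (chr11:53769898-53769957, plus strand): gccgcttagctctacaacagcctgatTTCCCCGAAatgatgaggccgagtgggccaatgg
Psmb8 (chr17:34198072-34198131, plus strand): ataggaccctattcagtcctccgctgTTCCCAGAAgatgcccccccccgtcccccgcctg
Psmb9 and Tap1 are transcribed away from each other from starts with 225 bases between them, so that their windows share 275 bases. The stretch between both starts is shown because the genes fell together and because neither set of letters occurs in it.
Psmb9 to Tap1 (chr17:34187331-34187555, plus strand): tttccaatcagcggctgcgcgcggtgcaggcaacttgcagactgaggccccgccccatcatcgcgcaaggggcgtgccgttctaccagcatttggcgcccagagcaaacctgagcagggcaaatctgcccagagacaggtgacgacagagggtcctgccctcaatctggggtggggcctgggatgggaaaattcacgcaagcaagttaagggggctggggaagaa

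The pathway upstream of the genes was examined with lists of receptors, signaling components and sensors that are not among the 41. Of 6 receptor chains tested, Ifngr1, the ligand-binding chain of the interferon gamma receptor, was the only one to fall, against 6.99% lower among all genes. It ranged from 71.8 to 125 normalized cpm in tumors (median 88.9) and was at 182, 209 and 246 in the glands, with a log2 fold change of -1.17 ± 0.18 (SE, adjusted p = 0.000248). Its partner Ifngr2 was not called (-0.39 ± 0.18, adjusted p = 0.124). Ifnar1, a chain of the type I interferon receptor, was not called either (-0.21 ± 0.13, adjusted p = 0.254). Ifnar2, the other chain, ranged from 38.9 to 48.6 in tumors and was at 74.6, 78.5 and 76.2 in glands. Its groups did not overlap, but its log2 fold change of -0.80 ± 0.12 (adjusted p = 0.000163) was short of 2-fold. The 6 interferon genes of the list, such as Ifnb1 and Ifng, were not analysed here.

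Of 11 signaling genes tested, 1 rose and 1 fell, near the shares of all genes (10.2% higher and 6.99% lower). The gene that rose, Socs3, an inhibitor of cytokine signaling that is induced through STAT3, ranged from 23.2 to 71.6 in tumors and from 5.73 to 11.2 in glands (log2 fold change 2.20 ± 0.29, adjusted p = 5.41e-05). Of 20 nucleic acid sensing genes tested, 2 fell and 18 were not called, against 6.99% lower among all genes. One of the genes that fell was Irf8, a factor of myeloid and B cells, which fell by 1.20 ± 0.32 on the log2 scale (adjusted p = 0.0108), and 7 of 10 tumors lay below all glands. Without gland 1, Irf8 was not called (-0.84, adjusted p = 0.112), which left 1 of the 20 genes lower. Its gland levels of 43.0, 12.9 and 30.5 followed the order of the lymphocyte markers in these libraries, and a link between them was not tested.

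Among the 4 transcription factors, Irf1, an activator of class I genes and GTPases that is itself induced by interferon gamma, was the one that fell. It ranged from 32.9 to 53.4 normalized cpm in tumors (median 36.6) and was at 112, 76.4 and 131 in the glands. All tumors were below all glands, with a log2 fold change of -1.41 ± 0.18 (SE, adjusted p = 4.57e-05). Stat2 ranged from 20.0 to 31.9 in tumors (median 26.3) and was at 34.9, 35.5 and 41.7 in glands. The groups did not overlap, and the log2 fold change of -0.52 ± 0.15 (adjusted p = 0.0205) was short of 2-fold. Irf9, the DNA-binding subunit, ranged from 38.3 to 69.1 (median 55.2) against 63.2, 66.5 and 74.6, so that the highest tumor lay among the glands (-0.39 ± 0.19, adjusted p = 0.137). Irf7, which amplifies type I interferon production, ranged from 13.9 to 25.98 (median 22.5) against 22.7, 28.3 and 29.4, with 5 of 10 tumors below all glands (-0.38 ± 0.21, adjusted p = 0.191).

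The 3 RNA sensors of the RIG-I family were not called. Ddx58, which encodes RIG-I itself, ranged from 16.8 to 32.01 normalized cpm in tumors (median 26.1) and was at 55.7, 63.7 and 32.4 in the glands. Every tumor was below every gland, but the highest tumor nearly reached gland 3. Its log2 fold change was -0.91 ± 0.22 (adjusted p = 0.00706), which became -1.20 without gland 3 and then passed the fold limit. Ifih1, which encodes MDA5, ranged from 11.6 to 31.9 (median 18.9) against 21.6, 29.6 and 28.5, and tumor 9 lay above all glands (-0.54 ± 0.24, adjusted p = 0.115). Dhx58, which encodes the regulator LGP2, had a log2 fold change of -0.16.

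Of the 20 antiviral genes, Bst2, which encodes the tetherin that holds budding virions at the cell surface, fell most clearly. It ranged from 26.5 to 49.2 normalized cpm in tumors (median 31.8) and was at 96.0, 125 and 148 in the glands. The groups were far from overlapping, with a log2 fold change of -1.81 ± 0.21 (SE, adjusted p = 1.92e-05). Of the other 10 antiviral genes tested, 7 had a log2 fold change between -0.89 and -0.39 and were not called. These were Ifi27 (-0.89), Ifi44 (-0.78), Xaf1 (-0.78), Rtp4 (-0.66), Eif2ak2 (-0.50), which encodes the kinase PKR, Oasl2 (-0.40) and Ifi35 (-0.39). In Ifi27 and Xaf1, all tumors were below all glands and the adjusted p was 0.00657 and 0.00873, and the fold limit alone kept them from being called. Ifi27 overlaps Ifi27l2a over 6057 bases, Rtp4 overlaps Masp1 over 1022 bases and Eif2ak2 overlaps the pseudogene Gm6548 over 2041 bases, so that these levels are less certain, as is that of Stat2, which overlaps Apof over 753 bases.

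The ubiquitin-like modifier Isg15 and the OAS enzymes, which sense double-stranded RNA, were close in both tissues. Isg15, often used as a readout of type I interferon, ranged from 6.15 to 16.6 normalized cpm in tumors (median 11.7) and was at 6.64, 9.14 and 11.7 in glands. The tumors spanned the glands on both sides (log2 fold change 0.27 ± 0.26, adjusted p = 0.491). Oas1a ranged from 6.08 to 12.7 (median 8.96) against 5.14, 10.9 and 8.17, and Oas2 from 2.70 to 15.5 (median 6.01) against 4.97, 6.82 and 6.22. Their log2 fold changes were 0.18 ± 0.25 and 0.10 ± 0.33. The sign of these 3 small differences turned negative when libraries were scaled to epithelial genes (-0.04, -0.12 and -0.20), which shifted the median of all genes to -0.31.

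The remaining 9 antiviral genes were too low for the filter, with 7 or more of the 13 libraries at or under 5 normalized cpm. Since most libraries are tumors, a gene at or under 5 in 7 tumors was left out whatever its level in the glands. The values of the 9 genes come from the fit without the filter. With the filter lifted, 19 of the 41 genes were called lower and 0 higher, against 10.1% and 10.5% of all 15213 genes. By limma, 4 of the 9 fell, namely Ifit2 (-1.40), Ifit3 (-1.35), Rsad2 (-1.34) and Usp18 (-1.01). The IFIT proteins bind viral RNA, Rsad2 encodes viperin, and Usp18 encodes the protease that removes ISG15. Ifit2 ranged from 2.08 to 6.15 in tumors (median 3.73) and was at 12.9, 16.4 and 7.19 in glands, without overlap. Rsad2 ranged from 0.889 to 6.15 (median 1.90) against 7.58, 7.38 and 7.68, also without overlap. In Usp18, tumor 9 at 6.60 lay between the glands at 3.82, 6.59 and 8.41, above the other tumors. Ifit1 was not called (-0.86, adjusted p = 0.0184), although its mean was 2.89 in tumors and 5.92 in glands, since adding 1 before the log2 lessens the change of low genes. The GTPases Mx1 (-0.04) and Mx2 (0.08) and the OAS family genes Oas3 (0.01) and Oasl1 (-0.0050) were near 0 on the log2 scale. Mx1 was uneven among glands, at 3.51, 0.568 and 6.95. These low values rest on few reads, for example 4 reads of Ifit3 in the tumor with the fewest.

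**Figure D2:**
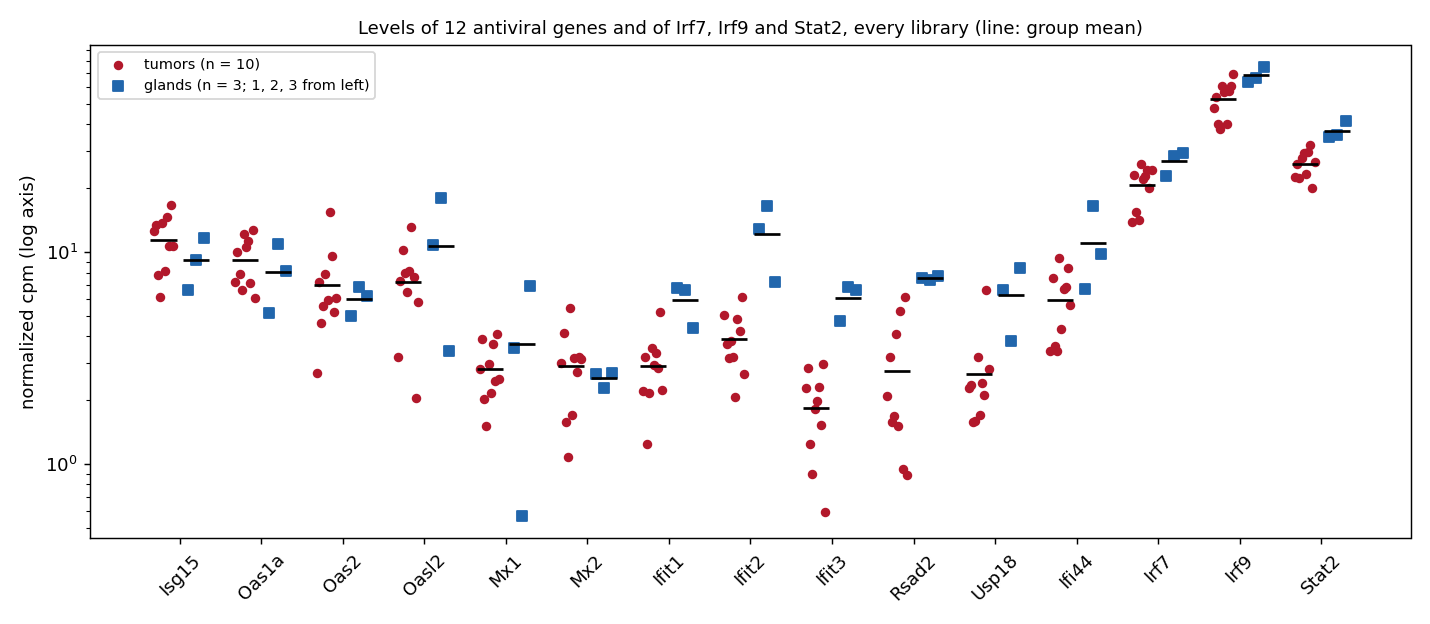
Normalized cpm (log axis) of 12 antiviral genes and of Irf7, Irf9 and Stat2 in each of 10 tumors (red circles) and 3 glands (blue squares), with a line at each group mean. Tumors and glands overlap for Isg15, the OAS genes, Mx1 and Mx2, whereas every tumor lies below every gland for Ifit2, Ifit3, Rsad2 and Stat2.

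The 2 PARPs lie close to each other on chromosome 16. Parp14, a mono-ADP-ribosyltransferase, fell, ranging from 12.5 to 27.8 normalized cpm in tumors (median 24.1) against 95.4, 95.05 and 49.4 in the glands. All tumors were below all glands (log2 fold change -1.79 ± 0.26, SE, adjusted p = 0.000123). Parp9, the partner of the ubiquitin ligase DTX3L, ranged from 45.9 to 69.2 (median 53.5) against 88.3, 119 and 118. It was below all glands in every tumor as well, but at -0.93 ± 0.16 (adjusted p = 0.000449) it did not pass the fold limit. It overlaps Dtx3l by 558 bases, and reads in the shared bases could have been assigned to either gene or to none.

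The GTPases, which are recruited to intracellular vacuoles that hold pathogens, were among the genes with the largest falls. Iigp1, an immunity-related GTPase, ranged from 3.71 to 20.3 normalized cpm in tumors (median 12.04) and was at 53.5, 84.8 and 84.8 in the glands. Even the highest tumor was far below the lowest gland, with a log2 fold change of -2.54 ± 0.40 (SE, adjusted p = 0.000248). Igtp, of the same family, ranged from 4.78 to 20.0 (median 10.3) against 61.1, 63.7 and 42.5, again without overlap (-2.25 ± 0.31, adjusted p = 8.08e-05). The guanylate-binding proteins Gbp2 and Gbp3 lie close to each other on chromosome 3. Gbp3 was the most even of the 4, from 10.003 to 16.8 in tumors (median 13.2) against 42.7, 60.5 and 37.3 in glands (-1.76 ± 0.18, adjusted p = 4.94e-06). Gbp2 ranged from 13.6 to 27.9 (median 17.1) against 72.2, 76.2 and 53.2 (-1.76 ± 0.22, adjusted p = 3.09e-05). Neither overlapped between groups. The GBP and IRG families have close paralogs, and how reads that match several of them were counted was not stated.

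The 8 genes of class I presentation fell together, and in each of them every tumor was below every gland. With the exception of B2m on chromosome 2, they lie in the MHC on chromosome 17 (GRCm38.p6), between Tapbp at chr17:33919478-33929290 and H2-D1 at chr17:35263094-35267497. H2-D1, a class I heavy chain, ranged from 188 to 682 normalized cpm in tumors (median 432) and was at 1889, 1675 and 1487 in the glands. H2-K1, the other heavy chain among the 8, at chr17:33996012-34000619, ranged from 210 to 640 (median 419) against 1776, 1924 and 1197. B2m, which encodes the invariant light chain beta-2 microglobulin, ranged from 302 to 653 (median 463) against 1296, 1503 and 1693. The chains of the class I molecule were thus lower in all 10 tumors, and their log2 fold changes were -2.05 ± 0.32 (SE, adjusted p = 0.000204), -2.03 ± 0.30 (adjusted p = 0.000131) and -1.69 ± 0.22 (adjusted p = 4.21e-05). FVB mice carry another class I haplotype than the reference genome, and the heavy chains are similar to each other and to the H2-Q genes, so that the level of a single heavy chain is uncertain. B2m overlaps Patl2 over the whole of its length in RefSeq, and the strand setting of the counting was not stated.

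The peptide transporter and its partners fell as well. Tap2 ranged from 14.6 to 63.0 normalized cpm in tumors (median 38.5) and was at 243, 281 and 79.6 in the glands, with a log2 fold change of -2.34 ± 0.43 (adjusted p = 0.000821). The groups did not overlap, although gland 3 stood close to the highest tumor. Tap1, the other subunit, ranged from 15.9 to 55.8 (median 36.6) against 148, 131 and 83.3 (-1.77). Tapbp, which encodes the tapasin that holds the class I molecule at the transporter, ranged from 63.3 to 137 (median 115) against 376, 370 and 178 (-1.48). In all 3 genes gland 3 was the lowest gland and tumor 9 the lowest tumor.

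Psmb8 and Psmb9 encode catalytic subunits that replace the constitutive Psmb5 and Psmb6 in the immunoproteasome. Psmb8 ranged from 43.5 to 78.7 normalized cpm in tumors (median 66.2) and was at 225, 220 and 288 in the glands (log2 fold change -1.91 ± 0.18, adjusted p = 3.14e-06). Psmb9 ranged from 19.3 to 41.2 (median 27.8) against 75.5, 70.2 and 124 (-1.66). The constitutive subunits were not called, at 0.97 ± 0.26 for Psmb5 (adjusted p = 0.0127), 0.37 for Psmb6 and 0.07 for Psmb7. Psmb5 was close to the fold limit and was called higher with upper quartile scaling (1.01), without tumor 8 (1.00) and without gland 3 (1.44). Other settings weakened it. Its log2 fold change was 0.64 without gland 1 (adjusted p = 0.133) and 0.82 without gland 2 (adjusted p = 0.0811). With libraries scaled to epithelial genes it was 0.63 (adjusted p = 0.287). Within each library, the ratio of Psmb8 to Psmb5 was between 0.767 and 1.49 in tumors (median 1.14) and 12.4, 9.39 and 5.12 in glands. The ratio of Psmb9 to Psmb6 was between 0.0966 and 0.219 in tumors (median 0.133) and 0.687, 0.579 and 0.493 in glands. Psmb10, the subunit induced in place of Psmb7, fell with a log2 fold change of -1.41 ± 0.14 (adjusted p = 4.94e-06), and its ratio to Psmb7 was between 0.122 and 0.226 in tumors against 0.653, 0.510 and 0.343. These ratios do not depend on the scaling between libraries, and the tumors lay below the glands in all 3 pairs. They are ratios of reads and were not divided by transcript length.

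**Figure D3:**
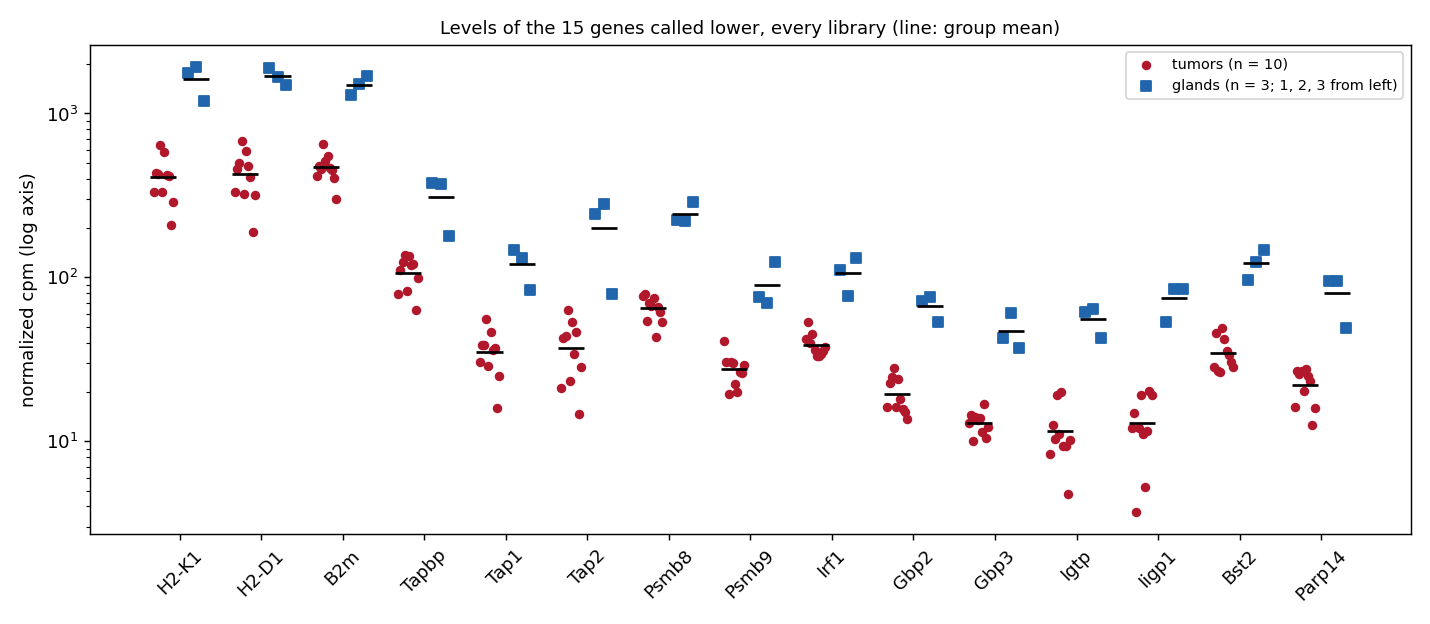
Normalized cpm (log axis) of the 15 genes that were called lower, in each of 10 tumors (red circles) and 3 glands (blue squares), with a line at each group mean. No tumor reaches the lowest gland in any of the 15 genes, and the gap is narrowest for Tap2, where the highest tumor is at 63.0 and gland 3 at 79.6.

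**Figure D4:**
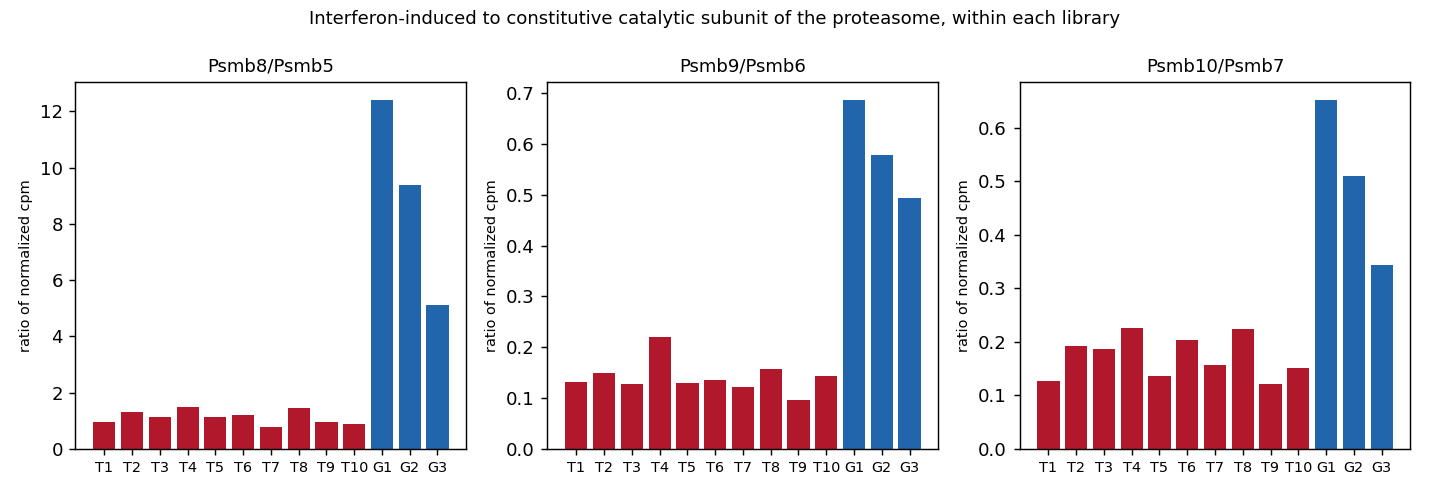
Ratio of an interferon-induced to a constitutive catalytic subunit of the proteasome (ratio of normalized cpm, linear axis) in each of 10 tumors (T1 to T10) and 3 glands (G1 to G3). All tumors are below all glands in the 3 pairs, with the widest gap for Psmb8 over Psmb5, at 1.49 in the highest tumor and 5.12 in the lowest gland.

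Lists of further genes with the same roles, which are not among the 41, showed the following. Of 21 other class I genes tested, 11 fell and 0 rose in limma, with a median log2 fold change of -1.08, against 6.99% lower and 10.2% higher among all genes. The largest falls were in the nonclassical heavy chains H2-Q7 (-2.62) and H2-Q6 (-1.85) and in Nlrc5 (-1.84), the transactivator of class I promoters. Nlrc5 ranged from 5.19 to 22.4 normalized cpm in tumors (median 10.8) and was at 52.5, 27.4 and 45.2 in glands, without overlap (SE 0.33, adjusted p = 0.000805). Of 32 other interferon-stimulated genes tested, 15 fell and 1 rose (median -0.96), against the same shares of all genes. The largest falls were in Cmpk2 (-2.72), a nucleotide kinase encoded next to Rsad2, in Slfn5 (-2.70) and in the GTPase Tgtp1 (-2.60). Ifitm3, which blocks the entry of viruses, rose, ranging from 109 to 218 in tumors against 82.4, 93.7 and 44.0 in glands (1.13 ± 0.24, adjusted p = 0.00242). It fell short of 2-fold and was not called without gland 3, the lowest gland (0.80), and with libraries scaled to epithelial genes (0.79). Cxcl9, a chemokine induced by interferon gamma that did not pass the filter, was chosen after its values were seen. It ranged from 0.683 to 3.85 in tumors and was at 37.8, 43.1 and 41.8 in glands (log2 fold change -3.80 in the fit without the filter).

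Markers of several other cell types differed between tumors and glands as well. The 12 lymphocyte markers summed to between 45.1 and 217 normalized cpm in tumors (median 77.2) and to 755, 47.6 and 690 in glands. In the fit without the filter, 9 of the 12 were lower, against 10.1% of all 15213 genes. The B cell gene Ms4a1 was at 0 in 4 tumors. Gland 2 was within the range of the tumors in the sum of these markers, and its 8 class I genes summed to 6175, against 6028 and 5131 in the other glands and 982 to 2330 in tumors. Its 4 GTPases summed to 285, against 230 and 218 in the other glands and 44.0 to 73.2 in tumors. Against gland 2 alone, all 10 tumors were lower in 26 of the 32 genes tested, all 12 class I and GTPase genes among them, which was true of 26.7% of all genes tested.

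The 8 endothelial markers summed to between 63.2 and 137 normalized cpm in tumors and to 653, 686 and 300 in glands, and 7 of 8 fell. None was at 0 in any library. The 6 adipocyte markers summed to between 12.1 and 266 in tumors and to 2776, 2947 and 9214 in glands, and all 6 were lower in the fit without the filter. Gland 3, with the highest adipocyte sum and the lowest endothelial sum of the glands, had the lowest class I sum of the 3. Macrophage markers went the other way, with sums of 579 to 957 in tumors against 402, 466 and 463 in glands, and 3 of 9 tested rose. So did neutrophil markers, with sums of 302 to 3939 in tumors against 10.9, 3.92 and 49.3. The sum of the 6 dendritic cell markers was 33.3 to 63.5 in tumors against 93.7, 23.6 and 101.4. Epithelial markers summed to between 2355 and 3521 in tumors and to 2406, 3539 and 1567 in glands, and 1 of 13 rose. The counts of tested markers stand against 6.99% lower and 10.2% higher among all genes tested. Those from the fit without the filter stand against 10.1% lower and 10.5% higher of all 15213 genes. The part of the lymphocyte, endothelial, adipocyte and myeloid markers in the lower class I and GTPase levels was not tested.

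**Figure D5:**
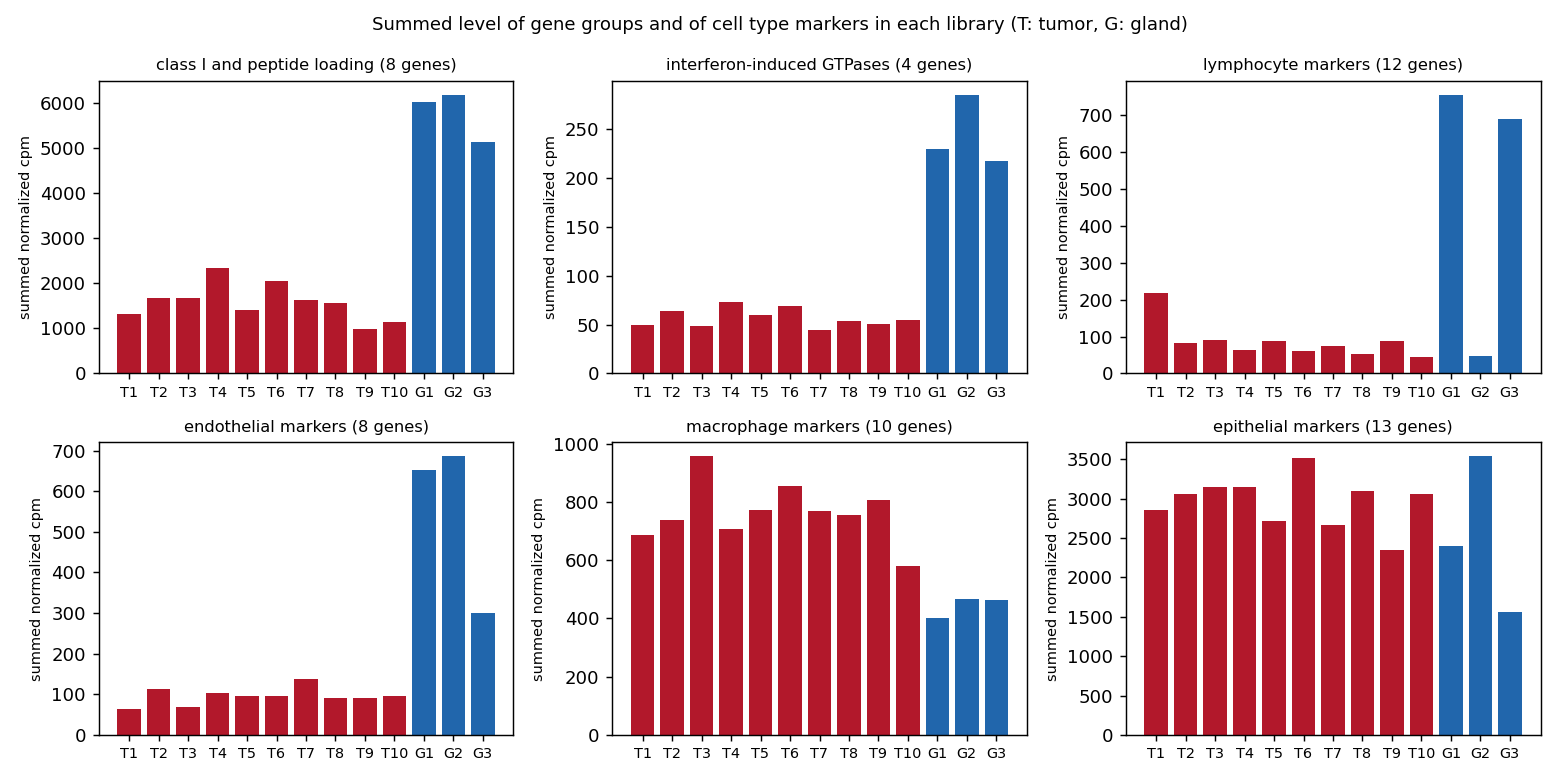
Summed normalized cpm (linear axis from 0) of the class I genes, the GTPases and of lymphocyte, endothelial, macrophage and epithelial markers in each of 10 tumors (T1 to T10, red) and 3 glands (G1 to G3, blue). Gland 2 is at 47.6 for lymphocyte markers, within the range of the tumors, and at 6175 for class I genes, above every tumor.

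The tumors also varied among themselves. The highest tumor was between 1.62 and 5.46 times the lowest in the 15 genes that fell (median 2.16) and between 1.51 and 6.40 times in the 17 that were not called (median 1.90). Tumor 9 was the lowest tumor in 5 of the 8 class I genes and tumor 4 the highest in 6 of 8. Among the 20 antiviral genes, tumor 9 was the highest in 9 and the lowest in 3, while tumor 4 was the lowest in 5 and the highest in 0. The class I sum was 982 in tumor 9 and 2330 in tumor 4. Rn45s took 27.4% of the reads in tumor 9 and 0.456% in tumor 4, between 0.799% and 9.32% in the other tumors, and 0.324%, 0.296% and 4.35% in the glands. The part of these reads in the order of the tumors was not tested. Without tumor 9, the same 15 genes were called lower.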

How the data were processed

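The deposited signal values of the whole-series table were made by the authors from paired-end reads mapped to mm10 with Rsubread and assigned to genes with featureCounts. The counts were then normalized with edgeR, and no strand setting is stated. Every value was a whole multiple of a per-library unit within 0.01 of a read (100% of values), so read counts could be recovered.

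The values were tested as log2(normalized cpm + 1) with limma 3.58.1 (R 4.3.3) and a variance trend, for 10 tumors against 3 glands in 1 fit with no covariate. Genes at 5 or less in more than 6 of 13 libraries were left out. Genes with a Benjamini-Hochberg adjusted p below 0.05 over all genes tested and a change beyond 2-fold were called. Standard errors are those of limma. Since the numbers of tumors and glands name no shared animal or day, and several tumors share a mouse, p-values describe the spread between these libraries. edgeR 4.0.16 and DESeq2 1.42.0 on recovered reads, other pseudocounts, scalings and filters, the mouse and left-out libraries were alternatives. Sequencing at a core facility and at a company are both mentioned by the sources, with no assignment to libraries, so a batch was not analysed here.

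The genes and lists were chosen with earlier results of these data known. Values in every group are given for up to 3 called genes per direction in each role, for the 2 smallest adjusted p in a role without calls, and for H2-K1, H2-D1, B2m, Stat2, Irf7 and Irf9; of the other lists, for the called genes with the largest changes, the receptors, Nlrc5 and the constitutive proteasome genes. Tap1, Tapbp, Psmb8, Psmb9, Gbp2, Isg15, Ifit2, Rsad2, Usp18, Oas1a, Oas2, Parp9, Mx1 and Psmb10 were given values outside that rule. RefSeq windows and coordinates (GRCm38.p6) were matched by Entrez ID for all 41 genes, 30 of which had a window. Results for some genes of the other lists are not reported here.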

Additional observations from a re-analysis of the deposited data

Results flagged for a closer look

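In each of the 41 genes, the highest or lowest of the 10 tumors was compared with its nearest neighbor by Dixon's criterion. In 5 genes a tumor was beyond it, where chance gives about 1 in 20 groups of normally distributed values. All 5 were the highest tumor of the gene. The values were compared without a log, and whether they were normally distributed was not tested. Tumor 9 stood above the other tumors in Usp18, at 6.60 normalized cpm against 3.19 in the next, and in Ifih1, at 31.9 against 21.2. Tumor 7 stood apart in the neighboring genes Oas2, at 15.5 against 9.53, and Oas3, at 4.30 against 1.69. Tumor 1 was highest in Psmb9, at 41.2 against 30.4, and remained below the lowest gland at 70.2. Usp18 and Oas3 did not pass the filter on low values.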

How the results depend on the processing

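The same 15 genes were called lower, and 0 higher, with no filter (among the 32 tested), by edgeR and by DESeq2, with pseudocounts of 0.25 and 4, with upper quartile scaling, with the tumors of a mouse averaged or the mouse as a random effect, and without the mouse of tumors 8, 9 and 10. Leaving out each library in turn gave 15 to 17 genes lower and 0 higher, with Ifi27 and Parp9 added without gland 1, Ifi27 without gland 2 and Ddx58 without gland 3. Scaling to epithelial genes shifted the median of all genes to -0.31 and gave 20 genes lower, the 15 among them, and changed the sign of Isg15 (-0.044), Oas1a (-0.12) and Oas2 (-0.20). With a replicate block, only Gbp3, Igtp and Iigp1 of the 15 were called (3 genes), while the median log2 fold change of the class I genes was -1.76 in place of -1.84, the other class I and interferon-stimulated lists had 1 and 2 genes lower in place of 11 and 15, 182 genes were lower among all genes in place of 825, and Oas2 was at -0.33. Only tumors 1 to 3 share a number with a gland, so the other tumors add nothing to the difference in the fit with the block. Tumors and glands with the same number deviated from their group means with correlations of -0.58, 0.04 and -0.66, and none was best with its own number, so the numbers were not taken as pairs. With libraries left out, Oas1a was between -0.075 (without gland 1) and 0.40, Oas2 between -0.029 (without tumor 7) and 0.21, at -0.012 without gland 1, and Oasl2 between -0.98 and 0.066 (without gland 2). The 3 glands limit the precision of every comparison, and the shallower tumor libraries that of genes at a few normalized cpm.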
